A study of Homo sapiens with 4 samples.

Results

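Collagens, laminins and integrins were examined as the structural chains of the extracellular matrix and the receptors that bind them. Members were the genes whose symbol begins with COL, a number, A and a number, with LAMA, LAMB or LAMC and a number, or with ITGA or ITGB and a number, without the ITGB1BP and ITGB3BP genes that encode integrin-binding proteins. In total, 65 of 16370 listed genes met this rule, of which 33 encode collagen chains, 10 laminin chains and 18 integrin chains. The other 4 are the pseudogenes COL6A4P1, COL6A4P2 and LAMB2P1, and COL4A3BP, which encodes a ceramide transfer protein. They were kept in the counts of members and left out of the family sums.

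Read counts per gene were obtained by RNA sequencing of total RNA from 4 cell lines, with 1 library each. Hep3B and Huh7 are human hepatoma cell lines, labelled as hepatocellular carcinoma cells (HCC), and Hep3B-C and Huh7-C are the hepatic cancer stem cell cultures (HCSC) derived from each. No treatment, passage or culture condition is given in the labels, and each HCSC line is known here from a single library. Each HCSC line was compared with its own parental line (HCSC/HCC).

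Collagens are trimers that assemble into fibrils, networks or beaded filaments. Laminins are trimers of an alpha, a beta and a gamma chain and form the sheet of the basement membrane. Integrins are pairs of an alpha and a beta chain that anchor cells to these proteins and signal inwards. In normal liver, fibrillar collagens come mainly from stellate cells and fibroblasts, whereas hepatocytes carry a limited set of integrins, with ITGB1 as the common beta chain.

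Promoters are shown for 4 chains on which the results turn. ITGB1 and LAMC1 lost the most reads in Hep3B-C, and COL6A2 and ITGA2 were down-regulated in both HCSC lines. The windows are the 250 bases before the RefSeq start site (GRCh38.p14), written 5′ to 3′ on the strand of the gene. That of ITGB1 is chr10:32958231-32958480 (minus strand), that of LAMC1 chr1:183023170-183023419 (plus strand), that of COL6A2 chr21:46097862-46098111 (plus strand) and that of ITGA2 chr5:52989102-52989351 (plus strand). Capitals mark the GC box, spelled GGGCGG and bound by SP1 and its relatives. They also mark the TATA box, a core promoter element that was searched for as the letters TATAAA. The third element searched for was the CCAAT box, a site of NF-Y. Each was sought on both strands, and no 2 matches overlap in these windows. Annotated exons cover 26 or fewer of the 250 bases.
ITGB1: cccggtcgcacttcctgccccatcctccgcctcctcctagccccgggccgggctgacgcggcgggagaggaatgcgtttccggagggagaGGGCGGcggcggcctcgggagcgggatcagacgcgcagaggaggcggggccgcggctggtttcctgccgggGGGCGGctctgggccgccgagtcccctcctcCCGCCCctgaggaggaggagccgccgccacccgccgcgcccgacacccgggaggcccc
LAMC1: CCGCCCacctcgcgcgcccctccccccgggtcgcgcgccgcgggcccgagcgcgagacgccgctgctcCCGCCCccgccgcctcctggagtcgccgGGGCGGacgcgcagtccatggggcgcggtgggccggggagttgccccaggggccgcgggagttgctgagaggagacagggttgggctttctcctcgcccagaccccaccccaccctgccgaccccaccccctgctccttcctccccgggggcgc
COL6A2: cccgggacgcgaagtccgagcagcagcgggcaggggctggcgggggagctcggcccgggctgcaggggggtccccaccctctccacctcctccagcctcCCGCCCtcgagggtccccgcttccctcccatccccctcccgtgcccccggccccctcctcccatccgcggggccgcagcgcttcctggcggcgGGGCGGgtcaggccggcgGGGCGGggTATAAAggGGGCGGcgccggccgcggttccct
ITGA2: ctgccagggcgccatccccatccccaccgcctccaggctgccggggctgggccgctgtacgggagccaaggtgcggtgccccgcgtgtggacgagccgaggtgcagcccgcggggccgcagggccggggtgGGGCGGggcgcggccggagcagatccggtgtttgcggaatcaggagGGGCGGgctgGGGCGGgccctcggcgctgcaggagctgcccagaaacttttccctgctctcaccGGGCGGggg
GC boxes numbered 3 in the windows of ITGB1 and LAMC1 and 4 in those of COL6A2 and ITGA2. COL6A2 alone among these 4 held a TATA box, and none held a CCAAT box. GC content ran from 76.4% in ITGA2 to 79.6% in LAMC1 and COL6A2. Of the 61 chains, 44 had an entry, and their median GC content was 64.2%, against 64.0% over the promoters of 12679 listed genes. A GC box was found in 61.4% of the 44 and in 62.9% of all, a CCAAT box in 22.7% and 34.6%, and a TATA box in 11.4% and 6.58%. These matches describe the letters of the windows only.

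Total gene counts ranged from 2896418 (Hep3B) to 4641927 (Hep3B-C), and 3 counts, taken as the floor, stood at 0.646 to 1.04 CPM (gene counts scaled to a common library total). Hepatocyte and hepatoma markers had a high summed level in all libraries, between 27248 and 72138 CPM, with all 10 listed in both pairs. Not every marker was high. AFP had 26 and 12 counts in Huh7 and Huh7-C, against 16175 and 4201 in Hep3B and Hep3B-C. TTR had 13 counts in Huh7 and 13 in Huh7-C, against 119 and 390 in the Hep3B pair. SERPINA1 alone held 40517 of the 51405 CPM in Huh7. Of the 6 fibroblast and stellate markers, 3 were listed in each pair. Their summed level was 11.4 and 10.8 CPM in Hep3B and Hep3B-C, and 41.2 and 0.692 CPM in Huh7 and Huh7-C, most of it PDGFRB. DCN and ACTA2 were listed in neither pair. Summed endothelial markers ran from 2.80 to 21.5 CPM, with CDH5 listed in neither pair. Of 5 leukocyte markers 3 were listed, and their summed level was 313 and 451 CPM in the Hep3B pair and 186 and 191 CPM in the Huh7 pair. CD68 (289 and 1254 counts in the Hep3B pair, called up) and LYZ made up nearly all of it, while PTPRC and CD3E were listed in neither pair. Genes are listed only where at least 1 of the pair's libraries held a read. In bulk RNA, fewer cells expressing a gene and less RNA per cell cannot be told apart.

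Genes were called at an Audic-Claverie FDR of at most 0.01 (Benjamini-Hochberg over all genes of the pair) with a log2 fold-change (log2FC) of 1 or more in size. SE are counting errors of the log2FC. This test compares the reads of 2 libraries and covers sampling noise only. In Hep3B-C, 4 of the 60 listed members were up-regulated (6.67%, against 13.2% of all 15480 genes) and 17 were down-regulated (28.3%, against 30.4% of all genes). The share of members called down was thus close to the background. In Huh7-C, 3 of 49 members were up-regulated (6.12%, background 4.19%) and 2 were down-regulated (4.08%, background 4.15%), which is also near the background. With TMM library sizes the calls in Hep3B-C were 6 up and 13 down, and those of all genes 21.6% up and 18.1% down. In Huh7-C the TMM calls were 3 up and 2 down (background 3.73% and 4.46%). TMM raised every log2 fold-change of the Hep3B pair by 0.60 and lowered those of the Huh7 pair by 0.04.

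The families differed in their summed level. Collagen chains summed to 511 CPM in Hep3B and 210 CPM in Hep3B-C (ratio 0.410, 95% exact interval 0.378 to 0.445), and to 162 and 155 CPM in Huh7 and Huh7-C (ratio 0.954, 0.858 to 1.06). Laminin chains summed to 1342 and 501 CPM in the Hep3B pair (ratio 0.374, 0.355 to 0.393) and to 335 and 482 CPM in the Huh7 pair (ratio 1.44, 1.35 to 1.54). Integrin chains summed to 1622 and 411 CPM (ratio 0.253, 0.240 to 0.267) and to 1243 and 995 CPM (ratio 0.800, 0.769 to 0.833). Intervals and floors cover counting error only. All 3 families were lower in Hep3B-C than in Hep3B, whereas in the Huh7 pair only the laminin sum was higher in the HCSC line.

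Sums are set by a few abundant chains, so medians were taken as well over chains with at least 10 counts in the pair. In Hep3B-C the median log2 fold-change was -1.14 for 16 collagens, -0.60 for 9 laminins and -1.54 for 10 integrins, against -0.60 for all 12383 such genes. The laminin median equalled that of all genes. It turned to 0.26 once the trend over gene length was removed, against -0.52 for all genes. In Huh7-C the medians were 0.28 (10 collagens), 0.14 (6 laminins) and -0.34 (9 integrins), against 0.06 for 11951 genes. The laminin median there turned to -0.27 without the length trend, against 0.04 for all genes.

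Fibrillar collagens, which form the rope-like fibrils of connective tissue, were called in both directions in Hep3B-C (1 up and 4 down of 10 listed) and upward in Huh7-C (3 up and 0 down of 8 listed), where 13.2% and 30.4% of all genes were called up and down in the Hep3B pair and 4.19% and 4.15% in the Huh7 pair. COL2A1, the chain of cartilage collagen II (GRCh38 chr12:47972965-48004554, minus strand), had 1 count in Hep3B and 317 in Hep3B-C, or 0.0679 and 13.4 CPM per kilobase of gene length (RPKM). It was up-regulated (ratio 198, interval 35.2 to 7837; FDR 7.0e-64) and was not listed in the Huh7 pair. COL5A2, a chain of collagen V that takes part in fibril assembly (chr2:189031896-189225312, minus strand), had 509 counts in Hep3B and 37 in Hep3B-C, and was down-regulated there (log2FC -4.44, SE 0.24, FDR 1.0e-160). The Huh7 pair held 56 and 83 counts, which did not pass the thresholds (log2FC 0.63, SE 0.25, FDR 0.040). Of the fibrillar reads, COL5A2 held 63.8% in Hep3B (95% Wilson interval 60.4 to 67.0) and 7.99% in Hep3B-C (5.85 to 10.8), while COL2A1 held 68.5% in Hep3B-C (64.1 to 72.5).

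COL3A1 encodes collagen III and lies next to COL5A2 (chr2:188974320-189012746, plus strand). It had 1 count in Hep3B, 0 in Hep3B-C and 0 in Huh7, and 58 counts in Huh7-C. There it was up-regulated, at least 20.2-fold higher than the floor of 3 counts in Huh7 (exact lower limit of the ratio 15.9, FDR 3.4e-17), and it stood at 2.44 RPKM. Of the fibroblast markers, PDGFRB was lower in the same library, at 186 counts in Huh7 and 2 in Huh7-C. LUM had 1 and 0 counts and THY1 had 0 and 1, while DCN and ACTA2 were not listed. The part of such cells in this result was not tested beyond these values.

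COL5A3 (a collagen V chain) had 31 counts in Huh7 and 71 in Huh7-C (log2FC 1.25, SE 0.31, FDR 1.9e-04), while Hep3B and Hep3B-C held 1 and 11 reads of it (FDR 0.076). COL11A1, which nucleates cartilage fibrils, went from 3 to 20 counts in Huh7-C (ratio 6.98, interval 2.07 to 36.7; FDR 0.0015). Summed fibrillar reads were 138 in Huh7 and 272 in Huh7-C (ratio 2.06, interval 1.68 to 2.55), the reverse of the Hep3B pair at 798 and 463 (ratio 0.362, 0.322 to 0.406). All 3 up-regulated members of Huh7-C were fibrillar chains. Not every fibrillar chain was higher there. COL1A1, a collagen I chain, had 18 counts in Huh7 and 7 in Huh7-C (log2FC -1.24, SE 0.62) and was not called. COL27A1, a fibrillar collagen of cartilage, fell in Hep3B-C to 88 counts from 267 (log2FC -2.28, SE 0.18) and had 29 and 31 counts in the Huh7 pair. COL1A2, at 6 and 0 counts, and COL11A2, at 9 and 1, were called down in Hep3B-C on few reads, and not with TMM library sizes.

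Collagen VI, which forms beaded filaments around cells, was lower in both HCSC lines. COL6A2 (chr21:46098097-46132849, plus strand) had 16 counts in Hep3B and 0 in Hep3B-C, at least 8.55-fold lower with Hep3B-C at the floor of 3 counts (exact upper limit of the ratio 0.162, FDR 4.6e-07). Huh7 and Huh7-C held 165 and 58 counts of it, or 10.6 and 3.88 RPKM (log2FC -1.43, SE 0.22, FDR 4.3e-11). Its neighbour COL6A1 (chr21:45981737-46005050, plus strand) fell in Hep3B-C, to 3 counts from 30 (log2FC -3.80, SE 0.81). In Huh7-C the 129 and 79 counts of COL6A1 passed the FDR but not the fold threshold (log2FC -0.64, SE 0.21, FDR 0.0064). Both chains were thus lower in both HCSC lines, and COL6A2 alone was called in both.

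Other collagens were represented by a few chains. COL18A1, a basement membrane collagen whose end fragment is endostatin, was the most abundant collagen in Huh7-C, at 8.36 RPKM. Its counts were 427 and 349 in the Hep3B pair (log2FC -0.97, SE 0.10) and 289 and 239 in the Huh7 pair (log2FC -0.21, SE 0.13), without passing the fold threshold. COL9A3, which coats cartilage fibrils, fell from 59 to 38 counts in Hep3B-C (log2FC -1.31, SE 0.30; -0.71 and no longer called with TMM library sizes) and was not listed in the Huh7 pair. COL14A1, which also decorates fibrils, fell there from 22 to 4 counts. COL9A2, the partner of COL9A3 in cartilage, had 58 and 56 counts in the Hep3B pair and 7 and 9 in the Huh7 pair, short of the thresholds. The chains of collagen IV, the network of basement membranes, had at most 7 counts in any library, and none was called.

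**Figure D1:**
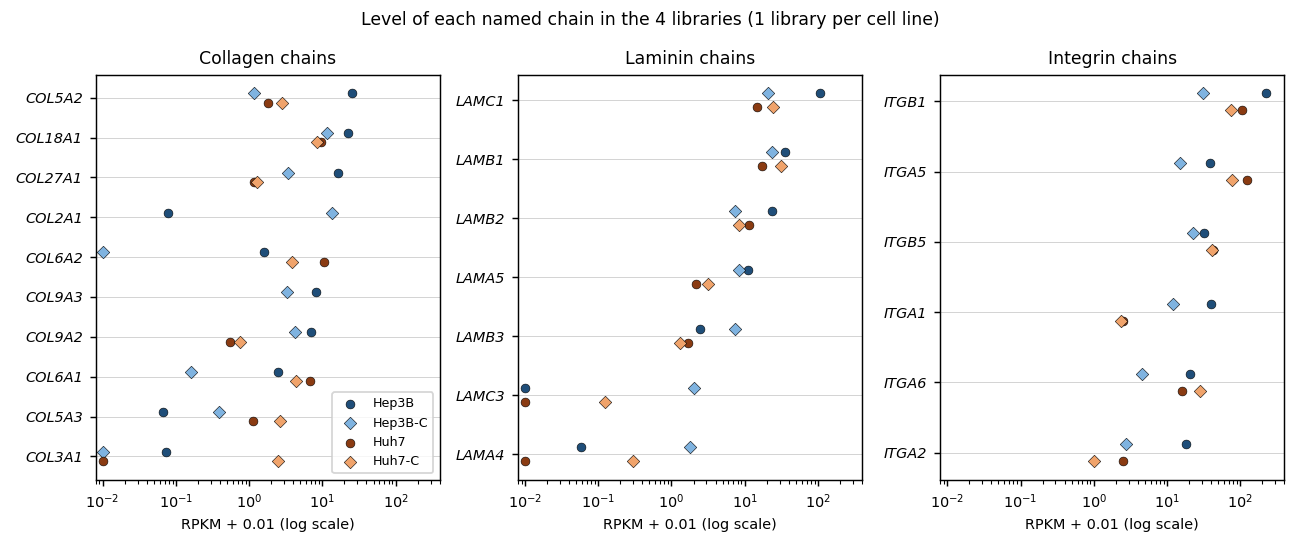
Level of the reported chains named by rule in the 4 libraries, as RPKM + 0.01 on a log axis, with circles for HCC and diamonds for HCSC lines and with points at 0.01 for chains at 0 counts. COL2A1 goes from 0.0679 RPKM in Hep3B to 13.4 in Hep3B-C, COL3A1 from 0 in Huh7 to 2.44 RPKM in Huh7-C, and ITGB1 has the highest Hep3B level of the chains shown, at 225 RPKM.

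Laminins were examined by chain position. Among gamma chains, LAMC1, the common gamma chain (chr1:183023460-183145592, plus strand), had 2465 counts in Hep3B and 768 in Hep3B-C, and it was down-regulated (108 to 21.0 RPKM, log2FC -2.36, SE 0.06). The Huh7 pair had 533 and 826 counts of it, a difference past the FDR in the other direction that fell short of the fold threshold (log2FC 0.70, SE 0.08, FDR 2.7e-17). LAMC3, a gamma chain of restricted tissue distribution (chr9:131009082-131094473, plus strand), had 0 counts in Hep3B and 58 in Hep3B-C, at least 12.1-fold higher than the floor of 3 counts (exact lower limit of the ratio 9.5, FDR 4.4e-12). It made up 58 of the 828 gamma chain reads of Hep3B-C (interval 5.46% to 8.95%). In the Huh7 pair it had 0 and 3 counts, at the floor.

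Alpha chains carry the integrin-binding domains of laminins. LAMA4, the alpha chain of vascular and muscle basement membranes (chr6:112108760-112254939, minus strand), had 1 count in Hep3B and 60 in Hep3B-C (ratio 37.4, interval 6.47 to 1503; FDR 3.8e-11). For the Huh7 pair the counts were 0 and 9, which missed the threshold (FDR 0.011). Endothelial markers stood at 3.11 and 2.80 CPM in Hep3B and Hep3B-C, with PECAM1 at 8 and 13 counts, and at 3.97 and 21.5 CPM in Huh7 and Huh7-C, with PECAM1 at 17 and 93 counts. CDH5 was listed in neither pair, and the part of such cells in the LAMA4 reads was not tested. LAMA5, the main alpha chain of adult epithelia, held 94.4% of alpha chain reads in Hep3B (91.6 to 96.2), 85.4% in Hep3B-C (82.1 to 88.2), 56.3% in Huh7 (49.4 to 63.1) and 66.7% in Huh7-C (60.4 to 72.4). LAMA3 made up most of the rest in the Huh7 pair, with 86 and 68 counts, against 21 and 16 counts in the Hep3B pair.

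Among beta chains, the share of LAMB2 was lower in both HCSC lines. LAMB2, the beta chain of muscle, kidney and vessel basement membranes, held 38.5% of beta chain reads in Hep3B (35.5 to 41.5) and 20.4% in Hep3B-C (200 of 979 reads, upper bound 23.1). In Huh7 it held 38.1% (34.8 to 41.6), and in Huh7-C 20.4% (209 of 1027 reads, upper bound 22.9). These shares do not depend on the library size. LAMB1, the widespread beta chain, held 58.5% and 64.6% in the Hep3B pair and 57.7% and 77.3% in the Huh7 pair. The share of LAMB3 went from 3.04% to 15.0% in the Hep3B pair and from 4.18% to 2.34% in the Huh7 pair, so the chains that took up the reads differed. LAMB2 fell in Hep3B-C from 392 to 200 counts (log2FC -1.65, SE 0.13), and had 301 and 209 counts in the Huh7 pair (log2FC -0.46, SE 0.13, FDR 0.0016). Its pseudogene LAMB2P1, which may share reads with it, had 8 counts or fewer. LAMB1 had log2 fold-changes of -0.60 and 0.87 in the same order, neither past the fold threshold. The length of these 2 genes is alike (5846 bases for LAMB1 and 5808 for LAMB2), while their GC content is 49.5% and 60.3%. With GC and length trends removed, the log2FC of LAMB1 and LAMB2 were -0.20 and -2.53 in Hep3B-C. In Huh7-C they were 0.62 and -0.68.

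LAMB3, a beta chain of epithelial basement membranes, rose in Hep3B-C from 31 to 147 counts (log2FC 1.55, SE 0.28, FDR 5.8e-09). The counts in Huh7 and Huh7-C were 33 and 24 (FDR 0.51). LAMA3, an alpha chain of the same membranes, was not called in Hep3B-C (log2FC -1.06, SE 0.47, FDR 0.037). With the trends over GC content and length removed, LAMB3 was no longer called in Hep3B-C (log2FC 0.51).

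**Figure D2:**
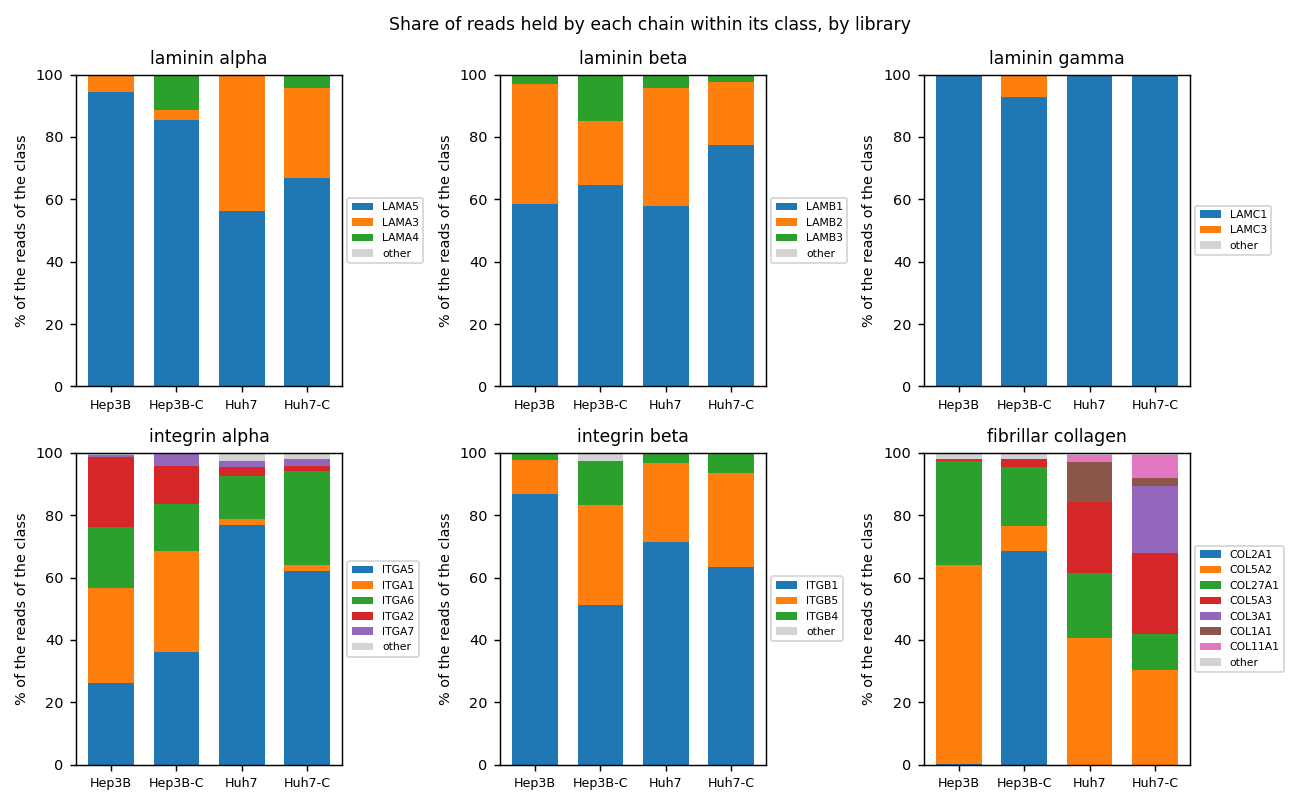
Share of reads (%) held by each chain within its class in each library, as stacked bars that sum to 100%, with chains under 3% of the class in every library in grey. LAMB2 goes from 38.5% to 20.4% in the Hep3B pair and from 38.1% to 20.4% in the Huh7 pair, and ITGB1 from 86.9% to 51.1% and from 71.4% to 63.4%.

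Integrin beta chains were led by ITGB1, the partner of most matrix-binding alpha chains (chr10:32900319-33005792, minus strand). It had 2519 counts in Hep3B and 555 in Hep3B-C, or 225 and 30.9 RPKM, and was down-regulated (log2FC -2.86, SE 0.07). In Huh7 and Huh7-C it had 1831 and 1263 counts (log2FC -0.47, SE 0.05, FDR 6.1e-18), short of the fold threshold. ITGB1 held 86.9% of beta chain reads in Hep3B (85.6 to 88.0) and 51.1% in Hep3B-C (48.1 to 54.1), and 71.4% in Huh7 (69.6 to 73.1) and 63.4% in Huh7-C (61.3 to 65.5). Its share was thus lower in both HCSC lines. ITGB1 and ITGB5 have a GC content of 40.0% and 54.3%, and with GC and length trends removed their log2FC in Hep3B-C were -1.75 and -1.27, so that most of the gap between them closed. ITGB5, which pairs with ITGAV, had 311 and 351 counts in the Hep3B pair (log2FC -0.51, SE 0.11) and 647 and 601 in the Huh7 pair (log2FC -0.04, SE 0.08). ITGB4, the hemidesmosome beta chain that pairs with ITGA6, had 56 and 153 counts in the Hep3B pair (log2FC 0.76, SE 0.22, FDR 0.0011). In the Huh7 pair it had 82 and 122 counts (log2FC 0.64, SE 0.21, FDR 0.0081), again short of the fold threshold. In Hep3B-C the log2FC of ITGB4 was 1.36 with TMM library sizes and turned to -0.32 with GC and length trends removed.

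Collagen-binding alpha chains were the next group. ITGA2, a collagen receptor chain of epithelia and platelets (chr5:52989326-53094779, plus strand), had 408 counts in Hep3B and 100 in Hep3B-C (log2FC -2.70, SE 0.16, FDR 8.2e-82). In Huh7 and Huh7-C it had 88 and 34 counts (log2FC -1.29, SE 0.29, FDR 1.7e-05). ITGA2 and COL6A2 were the members called down in both pairs, 2 of the 44 listed in both, where 1.49% of 13917 shared genes were. No member was up-regulated in both pairs (background 0.568%). ITGA1, the neighbouring gene for another collagen receptor chain (chr5:52787896-52959210, plus strand), fell in Hep3B-C from 549 to 265 counts (log2FC -1.73, SE 0.11). It had 55 and 49 counts in Huh7 and Huh7-C (log2FC -0.10, SE 0.28), so in contrast to ITGA2 it was called in the Hep3B pair only. The difference between the pairs was not tested against replicates.

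The laminin receptor chain ITGA6 had 349 and 124 counts in Hep3B and Hep3B-C and was down-regulated there (log2FC -2.17, SE 0.15). In Huh7 and Huh7-C it had 425 and 702 counts (log2FC 0.79, SE 0.09, FDR 3.4e-18). ITGA5, the fibronectin receptor chain, was the most abundant alpha chain in Huh7, at 123 RPKM, and had 78.2 RPKM in Huh7-C (2364 and 1440 counts, log2FC -0.65, SE 0.05). It fell in Hep3B-C from 472 to 298 counts (log2FC -1.34, SE 0.11), a call that was lost with TMM library sizes (-0.75). ITGA3, also a laminin receptor chain, had 0 and 1 counts in the Hep3B pair and 73 and 45 in the Huh7 pair. ITGA7, a laminin receptor chain of muscle, held 9 reads in Hep3B, 31 in Hep3B-C (FDR 0.076), 65 in Huh7 and 49 in Huh7-C (FDR 0.39). The remaining integrin chains had at most 16 counts in any library.

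**Figure D3:**
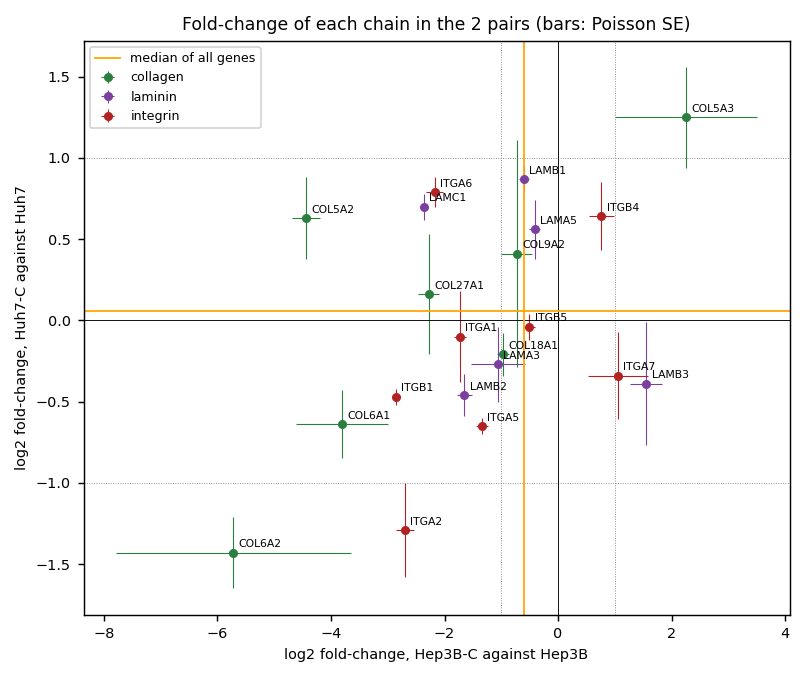
Log2 fold-change of Hep3B-C against Hep3B (x axis) and of Huh7-C against Huh7 (y axis) for the 21 chains with at least 10 counts in each pair, with Poisson SE as bars, the fold threshold dotted and the median of all genes in orange. COL6A2 and ITGA2 lie below -1 on both axes, while LAMC1 and ITGA6 lie at -2.36 and -2.17 in Hep3B-C and at 0.70 and 0.79 in Huh7-C.

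Genes that act with these chains were counted by list, against the shares of all genes given above (13.2% up and 30.4% down in Hep3B-C, or 21.6% and 18.1% with TMM, and 4.19% and 4.15% in Huh7-C). Of 26 genes of collagen processing, 23 were listed in the Hep3B pair (2 up and 6 down, but 8 up and 5 down with TMM) and 21 in the Huh7 pair (1 up and 4 down). LOX, which crosslinks collagen, had 1032 and 63 counts in Hep3B and Hep3B-C (log2FC -4.70, SE 0.19) and 123 and 57 in the Huh7 pair (-1.04, SE 0.23). PLOD2, a lysyl hydroxylase, fell in Hep3B-C from 2087 to 216 counts (log2FC -3.95, SE 0.10) and in Huh7-C from 258 to 97 counts (-1.34, SE 0.17). The crosslinking enzyme LOXL4 fell in Hep3B-C from 218 to 72 counts (-2.27, SE 0.20) and in Huh7-C from 623 to 112 counts (-2.40, SE 0.15). Of 13 basement membrane and matrix partners, 12 were listed in each pair, with 2 up and 5 down in Hep3B-C (2 and 3 with TMM) and 1 up and 0 down in Huh7-C. HSPG2 (perlecan, a basement membrane proteoglycan) had 960 and 300 counts in the Hep3B pair (log2FC -2.36, SE 0.10) and 49 and 118 in the Huh7 pair (1.33, SE 0.24), where the call was lost with GC and length trends removed (0.65). VTN (vitronectin) rose in Hep3B-C from 805 to 4864 counts (1.91, SE 0.05), a call lost with GC and length trends removed (0.36).

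Integrin chains outside the rule numbered 5 of 7 listed in the Hep3B pair (0 up, 1 down) and 6 of 7 in the Huh7 pair (0 up, 2 down). ITGAV, the alpha chain of vitronectin receptors, fell in Hep3B-C from 524 to 142 counts (log2FC -2.56, SE 0.14), a call lost with GC and length trends removed (-0.89), and had 98 and 128 counts in the Huh7 pair. ITGAL, a leukocyte integrin chain, fell in Huh7-C from 179 to 52 counts (-1.71, SE 0.23). Adapters that link integrins to actin were listed for 19 of 19 and 18 of 19 genes, with 3 up and 5 down in Hep3B-C (9 up and 3 down with TMM) and 2 up and 1 down in Huh7-C. TNS1 (tensin) fell in both lines, from 358 to 24 counts (-4.55, SE 0.30) and from 406 to 80 counts (-2.27, SE 0.18). FERMT1 (a kindlin) rose in Huh7-C from 19 to 70 counts (1.92, SE 0.37), and LIMS1 fell in Hep3B-C from 140 to 45 counts (-2.31, SE 0.25). DDR1, a collagen receptor kinase, had 108 and 386 counts in the Hep3B pair (1.15, SE 0.16), which turned to -0.17 with the GC and length trends removed, and 376 and 365 counts in the Huh7 pair. DDR2 had at most 2 counts.

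Gene length and base composition moved with the fold-changes and were set beside the members. Chains with at least 10 counts had a median length of 5846 bases in the Hep3B pair, against 2921 bases for all genes, and a median GC content of 60.2% against 48.6%. Across all genes the log2 fold-change in Hep3B-C had a Spearman coefficient of -0.403 with length and 0.604 with GC content. Across the 35 chains these coefficients were 0.143 and 0.153. In Huh7-C they were 0.291 and -0.0616 across all genes, and 0.342 and -0.137 across 25 chains. Points of a pair share the same 2 libraries, and these coefficients are descriptions across genes. With the length trend removed, 8 members were up and 12 down in Hep3B-C (background 10.7% and 27.7%), and with both trends removed 4 were up and 22 down (3.79% and 26.0%). Of the calls made without correction, COL2A1, LAMA4 and LAMC3 stayed up with either correction. COL14A1, COL27A1, COL5A2, COL6A1, COL6A2, COL9A3, ITGA2, ITGB1 and LAMC1 stayed down with either. Calls lost with both trends removed included ITGA1 (-0.32), ITGA6 (-0.98) and LAMB3 (0.51), and those lost with the length trend removed included LAMB2 (-0.80), ITGA5 (-0.86), COL11A2 and COL1A2. Calls gained with both removed included COL18A1 (-2.18), COL9A2 (-2.46), ITGB5 (-1.27) and LAMA5 (-1.22), these being down. ITGB8, at 3 and 16 counts, was gained as up with the length trend removed (2.74) and with both removed (3.40). In Huh7-C, 2 members were up and 2 down with the length trend removed (2.98% and 4.07% of all genes) and with both removed (2.80% and 4.07%), COL5A3 being lost (0.96).

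**Figure D4:**
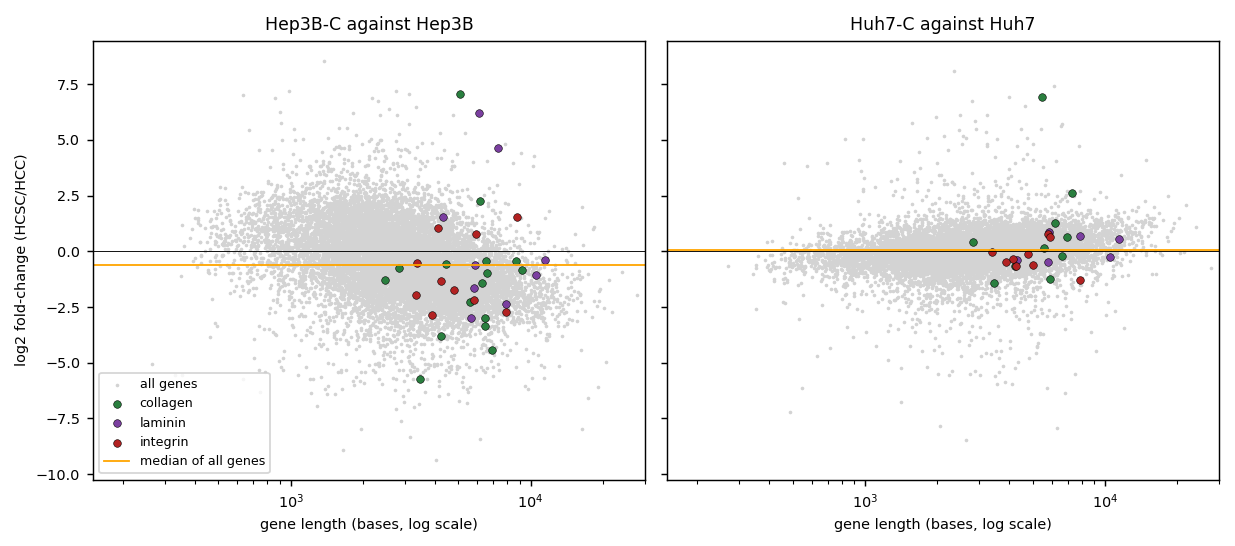
Log2 fold-change (HCSC/HCC) against gene length in bases (log axis) for all genes with at least 10 counts in the pair (grey) and for the chains (coloured), with the median of all genes in orange. The chains lie between 2485 and 11426 bases in the Hep3B pair, where the median of all genes is -0.60, and COL2A1, LAMC3 and LAMA4 stand above the other chains.

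HCSC and HCC were finally compared over all 4 libraries, with the line of origin as a block. This fit asks whether a difference is larger than its variation between the pairs. The edgeR quasi-likelihood test called 0 of 26 members tested, and 2 up and 1 down among 11691 genes (0.0171% and 0.00855%). At an unadjusted p under 0.05 it held 2 members, COL6A2 (log2FC -2.60, adjusted p = 1.0) and ITGA2 (log2FC -1.85, adjusted p = 1.0), against 3.18% of all genes. DESeq2 called 0 of 65 members, with 5 at an unadjusted p under 0.05, against 2.64% of the 16370 genes in that fit. This design left 1 residual degree of freedom. If a spread between replicates of 0.4 (BCV) is assumed, COL2A1 and LAMC3 up and COL5A2 down remained called in Hep3B-C. COL3A1 up remained called in Huh7-C, and all other member calls of the pairs were lost. Among all genes, that BCV left 62 up and 169 down of 15480 in the Hep3B pair. In the Huh7 pair it left 13 up and 12 down of 14807.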

How the data were processed

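An Illumina Genome Analyzer II was used for sequencing. The authors removed adapters and poor reads, aligned the rest to NCBI Build 36.1 with NextGENe and counted reads per transcript. The deposited values are whole-number read counts per gene with the authors' gene length in bases. The annotation, strand and handling of reads with several matches are not given in the sources used here, so reads of near-identical or overlapping genes (LAMB2 and LAMB2P1) may be misassigned.

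CPM and RPKM were computed from the counts, ratio intervals by Clopper-Pearson on the split of the reads, and shares with Wilson intervals. The Audic-Claverie test (smaller tail doubled, 0.5 added to counts for fold-changes only) was run on all 15480 and 14807 genes of the pairs in Python 3.11.15 (scipy 1.17.1). The joint fit used edgeR 4.0.16 with TMM and filterByExpr, and DESeq2 1.42.0 as an alternative, in R 4.3.3. Genes not listed in a pair were set to 0 in it. The pairing follows the cell line, and the departures from the group mean correlated between Hep3B and Hep3B-C (Pearson 0.584). Trends were lowess fits on genes with at least 20 counts, centred on their median. Tests were checked on simulated data. These held sampling noise alone for the pairs, and a spread below the fitted BCV of 0.51 for the joint fit. Error rates at the spread of the real libraries were not checked. Positions and GC content came from GENCODE 29 (GRCh38), joined by Entrez ID for 64 of 65 members, as annotation only. Promoters came from RefSeq.

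Members and lists were chosen with earlier results of these data known. Named members were those called in both pairs, the 3 largest called changes per family, pair and direction with at least 50 counts in 1 library, the 3 highest RPKM per family and library, and ITGA2 and COL6A2, set by name. 1 further member, counted in the totals, is not reported here. Of the other lists, ITGAV and the 2 largest called changes per pair could be named. Other members, the class shares and the promoter motifs were chosen after values had been seen.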

Additional observations from a re-analysis of the deposited data

Results flagged for a closer look

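Of the 44 members listed in both pairs, 4 chains were flagged because they passed the FDR of 0.01 in both with opposite signs. How many of all genes did so was not counted, so this number has no background and does not set the members apart. The median log2 fold-change of all genes was itself -0.60 in Hep3B-C and 0.06 in Huh7-C. In Hep3B-C, LAMB1 (-0.60) lay at that median and LAMA5 (-0.41) above it, so their negative sign did not set them apart. The log2 fold-change in Hep3B-C minus that in Huh7-C was -3.06 for LAMC1 (counting SE 0.10), -2.96 for ITGA6 (SE 0.17), -1.46 for LAMB1 (SE 0.12) and -0.97 for LAMA5 (SE 0.21). With 1 library per line, the difference was not tested against a spread between replicates. LAMC1 and ITGA6 kept opposite signs with TMM library sizes (-1.77 and 0.66, and -1.57 and 0.75), with the length trend removed (-1.27 and 0.31, and -1.32 and 0.52) and with GC and length trends removed (-1.68 and 0.34, and -0.98 and 0.50). LAMB1 had 0.26 and 0.60 with the length trend removed, but -0.20 and 0.62 with GC and length trends removed. LAMA5 had 0.19 and 0.51 with TMM and 0.97 and -0.02 with the length trend removed. With GC and length trends removed it had -1.22 and -0.03. LAMB1 and LAMA5 thus did not keep their signs under every setting. ITGA6 and the laminin chains LAMC1, LAMB1 and LAMA5 are a laminin receptor chain and parts of its ligands. Whether receptor and ligand chains change together was not tested.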

How the results depend on the processing

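In the Hep3B pair, members called up went from 4 to 7 with DESeq2 size factors and with the fold threshold alone, to 8 with the length trend removed and to 2 at an assumed BCV of 0.4. Members called down went from 17 to 11 with DESeq2 size factors and to 1 at that BCV. The calls of all genes with DESeq2 size factors and with the fold threshold alone were not counted. The member counts at these settings thus have no background and are not a result about the members. In the Huh7 pair that BCV gave 1 up and 0 down, and the calls of all genes at that BCV are given above. For the log2 ratio of summed counts in the Hep3B pair, collagens (main -1.28) moved to -0.69 with TMM, -0.60 with DESeq2 size factors, -0.49 without the length trend and -2.23 without GC and length trends. Laminins (-1.42) moved to -0.82, -0.74, -0.38 and -1.23, and integrins (-1.98) to -1.39, -1.30, -1.45 and -1.33, in the same order. In the Huh7 pair, removal of the length trend moved collagens to -0.32, laminins to 0.18 and integrins to -0.46, and removal of both trends gave -0.32, 0.21 and -0.46. DESeq2 size factors put integrins there at -0.39. No family ratio changed sign where its interval excluded 1. For the cause of these shifts, the size factors change by construction, and the trends were not traced further. Pseudocounts do not enter the sums.

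Among fold-changes of named members, 5 added to each count changed 0 of 46 calls, TMM lost 2 (COL9A3 and ITGA5 in Hep3B-C), removal of the length trend lost 4 and added 1, and removal of both trends lost 4 and added 4 (COL18A1, COL9A2, ITGB5 and LAMA5, down in Hep3B-C). Over both lines, member calls were 0 up and 0 down under every alternative run, which included no filter on low counts (lowest adjusted p 0.013, COL2A1). The fit with no replicate block also gave 0 and 0. Leaving out a line leaves 1 library per group, so no test was possible then. Depth limits chains under 10 counts, 24 of 60 members in the Hep3B pair and 22 of 49 in the Huh7 pair.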

Other observations

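The parental lines already differed in their set of chains. ITGA1 stood at 39.5 RPKM in Hep3B and 2.53 RPKM in Huh7, COL27A1 at 16.5 and 1.14 RPKM, and COL5A2 at 25.4 and 1.78 RPKM. ITGA5 had the reverse order, at 38.3 and 123 RPKM, and so did COL6A2, at 1.60 and 10.6 RPKM. LAMC1 was at 108 RPKM in Hep3B and 14.9 RPKM in Huh7, while the HCSC lines stood close together, at 21.0 and 24.2 RPKM. These levels are descriptions of single libraries, without a test.

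COL4A3BP had 86 and 38 counts in the Hep3B pair, where it was called down (log2FC -1.85, SE 0.28), and 45 and 45 counts in the Huh7 pair. The pseudogenes COL6A4P1, COL6A4P2 and LAMB2P1 had at most 8 counts in any library.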
